A study of Mus musculus with 16 samples.

Results

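The Id genes and BMP Smads were followed in cultured mouse dorsal root ganglia, the clusters of sensory neurons beside the spinal cord, before and after their axons were cut. The members are 8 genes, Id1, Id2, Id3, Id4, Smad1, Smad5, Smad6 and Smad7, taken as every probe that the array annotation gives to one of these symbols. They are 8 of 17914 genes in the annotation and were read by 12 of the 25697 probes on the array. The group was chosen by function and on earlier results of these data, in particular the measured log2 change of Id1 between uninjured cultures and 3 h after axotomy. All comparisons of 3 h with uninjured or of 12 h with 3 h are therefore given for the members as descriptions, with no test.

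Bone morphogenetic proteins (BMPs) are secreted ligands that bind paired serine/threonine kinase receptors, which phosphorylate Smad1 and Smad5. These carry the signal to the nucleus with the shared partner Smad4, and Smad6 and Smad7 are inhibitory Smads that feed back on the receptors. The Id genes are classic direct targets of this pathway. Id proteins have a helix-loop-helix domain and no DNA-binding region, so they hold E proteins away from DNA and restrain basic helix-loop-helix (bHLH) factors. In adult sensory neurons, Smad1 signalling is known as part of the growth programme that follows peripheral axon injury.

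CD-1 mice at embryonic day 13 gave the ganglia, and every culture received a lentivirus on day 4 in vitro. The overexpression virus carried human HIF-1α in the FUGW vector for constitutive expression, the knockdown virus carried MISSION hairpins against Hif1a, and the control virus carried a MISSION control hairpin. HIF-1α is degraded when oxygen is ample and drives the transcription of low-oxygen response genes when it accumulates. On day 7 a blade was drawn across the axons of spot cultures; RNA was collected after 3 h or 12 h, while the uninjured RNA dates from day 7 itself. Overexpression had 1 uninjured array, 2 arrays at 3 h and 1 array at 12 h, whereas knockdown and control had 2 arrays at each of the 3 times, which makes 16 arrays in 9 groups. All groups were virus-treated, so no culture without virus enters these comparisons. The labels do not say that replicates were separate cultures, and the p-values measure the spread between arrays, which may be technical.

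Intensities on each array had the same upper quartile, and a background cutoff of 16 was passed by 47.8% to 47.9% of probes. Arrays of one group correlated at 0.993 to 0.995, arrays of one construct at different times at 0.991 to 0.995, and arrays of different constructs at 0.917 to 0.953 (Pearson, log2 values across kept probes). The mouse Hif1a probe (ILMN_2852034) averaged 0.721 ± 4.44 in overexpression arrays (SD, n = 4), -2.64 ± 3.76 in knockdown arrays (n = 6) and 30.0 ± 7.96 in control arrays (n = 6). It was above 16 on all 6 control arrays and on 0 of the 10 others, and whether it reads the human cDNA was not tested. Of 13 sensory neuron markers on the array, 12 were above 16 on every array, and Snap25 was above 16 on none. Each construct is a separate virus, and the labels give no preparation or culture date. Differences between constructs therefore cannot be told apart from differences between virus preparations or culture batches.

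Upstream sequence was read for 6 of the 8 members from a RefSeq promoter table (GRCm38.p6). The other members were not read, which does not show that sequence is lacking for them. Of those read, 3 Id genes are shown, because Id2, Id3 and Id4 differed from each other in time course and in construct response. Each line holds the 250 bases before the annotated start on the gene's strand, written 5′ to 3′. Capitals mark matches, on either strand, to ACGTG or GCGTG (the core letters of the hypoxia response element) and to GTCT or GGCGCC (Smad-binding letters).
Id2, chr12:25096093-25096342, minus strand: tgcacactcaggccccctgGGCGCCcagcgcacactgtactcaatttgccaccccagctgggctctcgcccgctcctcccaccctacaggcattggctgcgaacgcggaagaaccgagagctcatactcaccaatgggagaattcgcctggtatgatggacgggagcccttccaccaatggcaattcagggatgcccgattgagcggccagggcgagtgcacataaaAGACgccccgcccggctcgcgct
Id3, chr4:136143572-136143821, plus strand: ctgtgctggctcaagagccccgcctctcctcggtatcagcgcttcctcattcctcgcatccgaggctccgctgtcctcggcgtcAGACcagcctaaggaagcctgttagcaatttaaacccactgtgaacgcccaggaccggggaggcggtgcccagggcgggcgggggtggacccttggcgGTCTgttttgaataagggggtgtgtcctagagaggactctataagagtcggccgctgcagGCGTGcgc
Id4, chr13:48260866-48261115, plus strand: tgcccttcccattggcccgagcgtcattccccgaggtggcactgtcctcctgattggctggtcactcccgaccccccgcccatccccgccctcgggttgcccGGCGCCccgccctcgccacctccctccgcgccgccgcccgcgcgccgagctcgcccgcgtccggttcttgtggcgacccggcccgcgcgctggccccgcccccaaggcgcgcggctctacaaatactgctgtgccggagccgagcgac

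GGCGCC was found once in the Id2 window and once in the Id4 window, and in 9.6% of the 32851 promoter windows of the same length. GCGTG was found once in the Id3 window, 8 bases before the start, and in 28.2% of all windows. ACGTG was in none of the Id2, Id3 and Id4 windows and in 16.6% of all windows, and the Smad6 window held 2 matches. GTCT was found once for Id2 and at 2 places for Id3, and its share over all windows was 82.9%. No match in the 3 windows overlapped another, and a match describes letters only.

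Id1 was bright under both HIF-1α constructs and close to background under the control hairpin at every time. The gene lies on chromosome 2 (GRCm38.p6, 152736251 to 152737410) and is the family member most often used as a readout of BMP signalling. In HIF-1α overexpression cultures the Id1 probe (ILMN_2672190) read 670 uninjured, 231 and 288 at 3 h, and 458 at 12 h. In Hif1a knockdown cultures it read 719 and 673 uninjured, 404 and 413 at 3 h, and 604 and 528 at 12 h. In control cultures it read 29.8 and 17.2 uninjured, 4.88 and 6.39 at 3 h, and 0.585 and 9.33 at 12 h. Every overexpression and knockdown array was thus above every control array, and only the 2 uninjured control arrays passed the background cutoff of 16.

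Averaged over the 3 times, Id1 was higher than control by 2.69 on the log2 scale in overexpression (SE 0.0832, adjusted p = 4.05e-16) and 2.98 in knockdown (SE 0.0721, adjusted p = 1.03e-17). These are limma differences on a scale with an added offset of 50, which understates the change of a gene that is dim in one group, and the 2 comparisons share the 6 control arrays. With intensities floored at 16 instead, Id1 in knockdown was 30.8-fold higher than control in uninjured cultures, at least 25.5-fold at 3 h and at least 35.3-fold at 12 h. Overexpression was 29.6-fold higher than control uninjured, at least 16.1-fold at 3 h and at least 28.6-fold at 12 h. Overexpression was lower than knockdown by a smaller margin, at -0.29 (SE 0.0832, adjusted p = 0.00516), and that call was lost with intensities floored at 16 (adjusted p = 0.0728). By time, knockdown was 1.04-fold brighter than overexpression uninjured, 1.58-fold at 3 h and 1.23-fold at 12 h, so the averaged difference includes the 3 h arrays on which Id1 was noted.

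Markers of other cells also differed between the constructs, and their part in the Id1 difference was not tested. The summed intensity of 12 Schwann cell and satellite glia markers was 9054 to 10350 in overexpression, 8577 to 10337 in knockdown and 18153 to 21209 in control arrays, and Ngfr, which neurons also express, made up most of it at 16801 to 19822 in control arrays. Single glial genes moved in different directions. Dhh, a Schwann cell signal, read 62.9 to 109 in overexpression, 72.8 to 134 in knockdown and at most 4.73 in control, and Pmp22 read 878 to 1832, 337 to 514 and 240 to 516. S100b was at most 2.74 in overexpression and 27.3 in knockdown, against 29.6 to 59.6 in control, and Fabp7, Foxd3 and Cdh19 were above 16 on no array. The 10 fibroblast markers summed to 374 to 418 in overexpression, 455 to 587 in knockdown and 125 to 196 in control arrays, with Col1a1, Col3a1 and Lum above 16 on none. Within that list Dcn was at most 17.7 in overexpression and 143 to 215 in knockdown, and Pdgfra was below 0 in overexpression and 138 to 264 in knockdown. Twist2 ran the other way, with 182 to 243 in overexpression and 15.5 to 26.2 in knockdown. Summed endothelial markers (8 genes) were 79 to 116, 99 to 151 and 35 to 83 in overexpression, knockdown and control, with Cdh5 and Cldn5 above 16 on no array. Macrophage markers (9 genes) summed to 208 to 313, 107 to 166 and 80 to 150 in the same order, with Ptprc and Itgam above 16 on none. Aif1 alone made up the largest part of that sum, at 183 to 278, 92.5 to 135 and 68.4 to 112. Of the 9 genes, 7, 5 and 7 were above 16 on no array of the construct. Sensory neuron markers summed to 51339 to 57035 in overexpression, 57123 to 60784 in knockdown and 70903 to 78460 in control. Single neuronal genes differed in direction. Stmn2 read 7309 to 9852 in overexpression, 24660 to 29174 in knockdown and 23125 to 29174 in control. Calca read 11775 to 14519, 3392 to 3770 and 13569 to 16996 in the same order. Isl1 read 5355 to 5859, 5755 to 6621 and 2971 to 3358. Of 12 kept genes, 1 was called higher and 5 lower in knockdown (all genes: 30.9% and 28.0%). In overexpression 3 were higher and 7 lower (all genes: 25.5% and 29.1%). In cultures of several cell types, fewer cells of a type and less RNA per cell cannot be told apart.

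**Figure D1:**
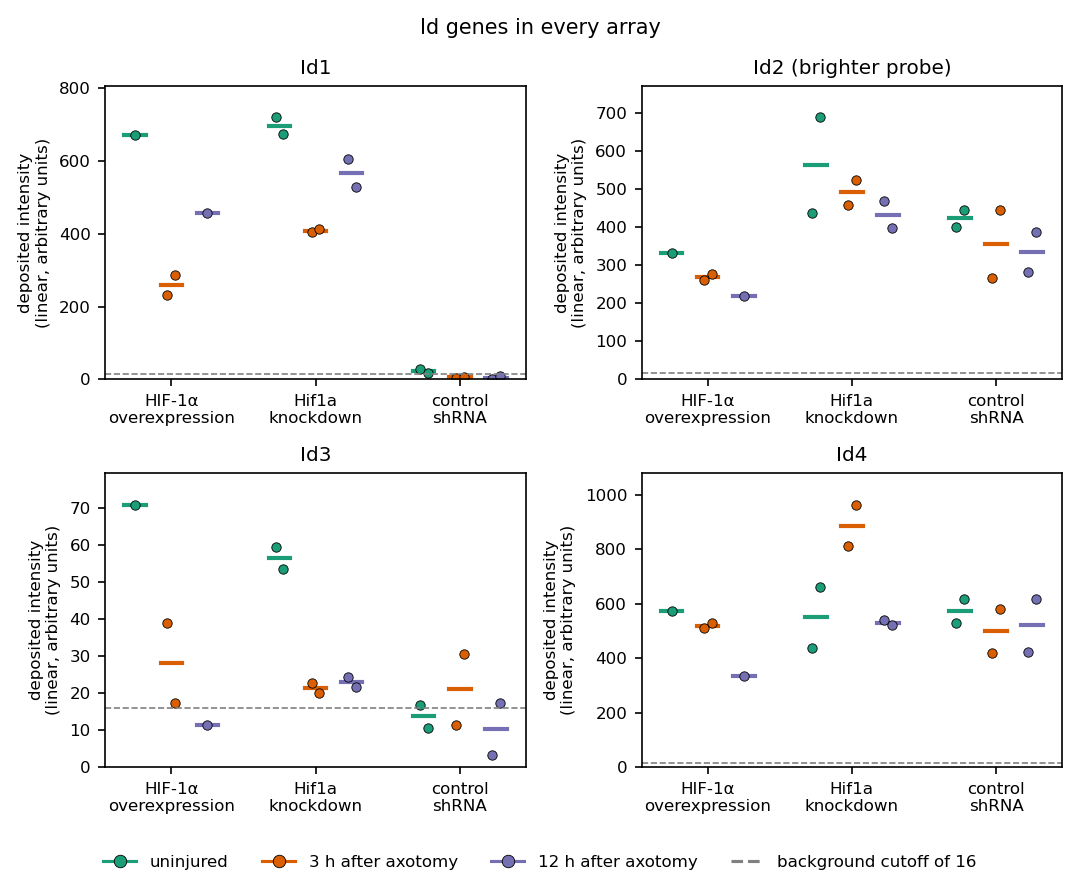
Deposited intensity (linear, arbitrary units) of the Id1, brighter Id2, Id3 and Id4 probes on each of the 16 arrays, by construct and time. Points are arrays, bars are group means and the dashed line is the background cutoff of 16. Id1 sits between 231 and 719 in the overexpression and knockdown arrays and at or below 29.8 in control arrays.

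The course of Id1 after the cut had one shape in both HIF-1α constructs. At 3 h its mean intensity was 38.8% of the uninjured mean in overexpression and 58.6% in knockdown, and at 12 h it stood at 68.3% and 81.3%. The log2 difference of 3 h from uninjured was -1.18 (SE 0.153) in overexpression, -0.68 (SE 0.125) in knockdown and -0.31 (SE 0.125) in control, the contrast for which the gene was noted. The step between 3 h and 12 h was 0.69 (SE 0.153) in overexpression, 0.41 (SE 0.125) in knockdown and -0.02 (SE 0.125) in control, where the probe was below 16 at both times. In control cultures the uninjured mean was at least 1.41-fold brighter than the background bound at 3 h and at 12 h.

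At 12 h, Id1 did not pass the test against uninjured. Averaged over the constructs its difference was -0.36 (SE 0.0832, adjusted p = 0.0640), and the values were -0.49 in overexpression, -0.27 in knockdown and -0.33 in control. This comparison uses the same uninjured arrays as the 3 h contrast and is not independent of it. With the brightest probe of each gene tested in place of all kept probes, the adjusted p was 0.0481. The change at 12 h did not pass a test of difference from control in overexpression (-0.16, SE 0.216, adjusted p = 0.981) or in knockdown (0.06, SE 0.177, adjusted p = 0.990).

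Id3, on chromosome 4 (GRCm38.p6, 136143822 to 136145392) and with the upstream window shown, was dim and fell by 12 h when the constructs were averaged. Its protein acts much as Id1 does, and both are often induced together by BMPs. In overexpression cultures the probe (ILMN_2687169) read 70.8 uninjured, 39.0 and 17.3 at 3 h, and 11.4 at 12 h. In knockdown cultures it read 59.3 and 53.4 uninjured, 22.7 and 20.1 at 3 h, and 24.4 and 21.6 at 12 h. In control cultures it read 16.7 and 10.6 uninjured, 11.3 and 30.6 at 3 h, and 3.33 and 17.4 at 12 h. Within overexpression and within knockdown every injured array was below every uninjured array, whereas the control arrays overlapped around the background cutoff.

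The averaged 12 h difference of Id3 was -0.45 (SE 0.0915, adjusted p = 0.0417), the only one of the 9 member probes tested that was called, where 0.411% of all 15086 probes were called in either direction and 0.166% were called lower. It stood at -0.82 in overexpression, -0.46 in knockdown and -0.07 in control, and no single construct passed (adjusted p = 0.272, 0.183 and 0.973 in that order). Floored at 16, uninjured overexpression was at least 4.42-fold brighter than 12 h and uninjured knockdown was 2.45-fold brighter. The call was lost with intensities floored at 16 (-1.14, adjusted p = 0.104), with an offset of 16 (-0.68, adjusted p = 0.141) and without any 1 of 6 arrays. These were control uninjured 1 (adjusted p = 0.0726), control 12 h 1 (0.136), knockdown uninjured 1 (0.0683) and 2 (0.0733), and knockdown 12 h 1 (0.0710) and 2 (0.117). The interaction at 12 h was -0.75 in overexpression (SE 0.238, adjusted p = 0.800) and -0.39 in knockdown (SE 0.194, adjusted p = 0.911), so a difference between constructs was not shown.

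At 3 h, described without a test, Id3 differed from uninjured by -0.54 (SE 0.168) in overexpression, -0.48 (SE 0.137) in knockdown and 0.12 (SE 0.137) in control. Averaged over the times, Id3 rose in overexpression against control by 0.30 (SE 0.0915, adjusted p = 0.00817) and in knockdown against control by 0.28 (SE 0.0792, adjusted p = 0.00434). Overexpression and knockdown differed from each other by 0.02 (95% interval -0.17 to 0.21), which did not pass. In uninjured cultures the floored fold over control was 4.33 for overexpression and 3.44 for knockdown, and at 3 h and 12 h no floored difference in Id3 between a construct and control exceeded 1.38-fold.

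Id2, on chromosome 12 (GRCm38.p6, 25093799 to 25096092), separated the 2 HIF-1α constructs from each other. Id2 is expressed in many neural cells and is also known as a restraint on E proteins in differentiated neurons. The brighter of its 2 probes (ILMN_1228557) read 333 uninjured, 261 and 277 at 3 h, and 220 at 12 h in overexpression cultures. In knockdown cultures it read 438 and 688 uninjured, 458 and 525 at 3 h, and 469 and 397 at 12 h. In control cultures it read 401 and 445 uninjured, 267 and 445 at 3 h, and 281 and 388 at 12 h. All 4 overexpression arrays were below all 6 knockdown arrays, and the control arrays overlapped both.

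Id2 fell in overexpression against knockdown by 0.72 on the log2 scale (SE 0.126, adjusted p = 4.94e-05) and rose in knockdown against control by 0.36 (SE 0.109, adjusted p = 0.00740). It fell in overexpression against control by 0.35 (SE 0.126, adjusted p = 0.0236), a call that was lost in 5 of 22 alternative settings (adjusted p up to 0.0853). These 5 were values floored at 16, an offset of 16, cyclic loess, and leaving out control 3 h 2 or control 12 h 2. The knockdown call was at an adjusted p of 0.0504 with values floored at 16. The second Id2 probe (ILMN_2887239) was above 16 on 6 of 16 arrays, between 4.60 and 37.5, and passed in none of these comparisons.

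After axotomy the mean intensity of the brighter Id2 probe was below the uninjured mean in all 3 constructs, and no 12 h difference passed the test. At 12 h the brighter probe differed from uninjured by -0.48 (SE 0.268) in overexpression, -0.31 (SE 0.189) in knockdown and -0.30 (SE 0.189) in control, with an averaged difference of -0.36 (SE 0.126, adjusted p = 0.239). At 3 h the described differences were -0.25, -0.15 and -0.24 in the same order.

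Id4, on chromosome 13 (GRCm38.p6, 48261116 to 48266028), was bright in all constructs and high at 3 h in knockdown. Id4 differs from the other family members in that it can also bind and oppose them. Its probe (ILMN_2678714) read 575 uninjured, 510 and 530 at 3 h, and 335 at 12 h in overexpression cultures. In knockdown cultures it read 439 and 663 uninjured, 811 and 964 at 3 h, and 541 and 521 at 12 h. In control cultures it read 530 and 618 uninjured, 418 and 581 at 3 h, and 424 and 617 at 12 h. The 2 knockdown arrays at 3 h were the brightest of the 16 for this probe, and the overexpression array at 12 h was the dimmest.

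The described 3 h difference of Id4 from uninjured was 0.65 (SE 0.176) in knockdown, against -0.13 (SE 0.216) in overexpression and -0.19 (SE 0.176) in control. At 12 h the values were -0.67 (SE 0.249, adjusted p = 0.532) in overexpression, -0.02 in knockdown and -0.14 in control, with no call. Averaged over the times, Id4 fell in overexpression against knockdown by 0.40 (SE 0.118, adjusted p = 0.00625). Against control the difference was -0.15 (SE 0.118, adjusted p = 0.294) in overexpression and 0.25 (SE 0.102, adjusted p = 0.0464) in knockdown, and the knockdown call was lost in 12 of 24 alternative settings (adjusted p up to 0.191). These included leaving out either 3 h overexpression array (0.0534 each), either 12 h knockdown array (0.0913 and 0.0711), knockdown 3 h 2 (0.119), knockdown uninjured 2 (0.191), control uninjured 1 (0.113), control 3 h 1 (0.170) or control 12 h 1 (0.190). The other 3 were values floored at 16 (0.141), an offset of 16 (0.0985) and no filter on dim probes (0.0533). By time, control was 1.06-fold brighter than knockdown uninjured, and knockdown was 1.79-fold brighter than control at 3 h and 1.04-fold at 12 h. The averaged difference from control thus came mostly from the 3 h arrays, which were not tested. Overexpression was 1.06-fold brighter than knockdown uninjured, and knockdown was 1.70-fold brighter at 3 h and 1.59-fold at 12 h.

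**Figure D2:**
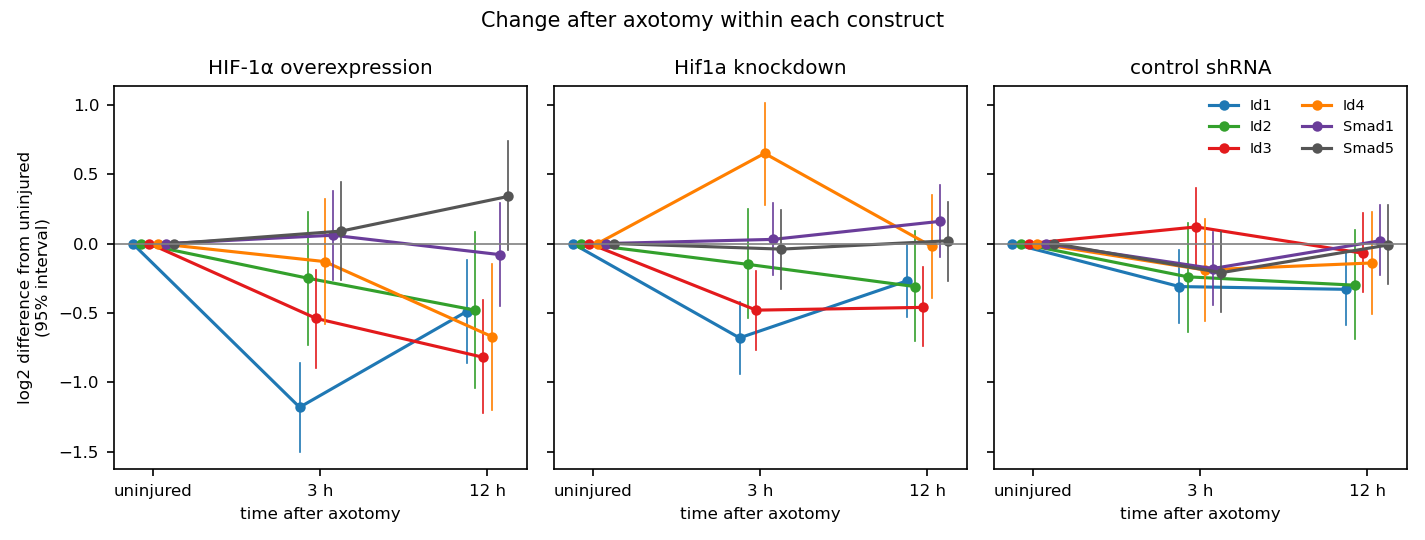
Log2 difference from uninjured (points, with 95% intervals from the fit) at 3 h and 12 h for 6 member probes, one panel per construct; the 3 h points are descriptive. Id1 is lowest at 3 h in the overexpression and knockdown panels, and Id4 lies above the zero line at 3 h in the knockdown panel alone.

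Smad1, on chromosome 8 (GRCm38.p6, 79338395 to 79399428), was bright in every array and higher in knockdown. It is the receptor-activated Smad most often tied to axon growth in sensory neurons. The brightest of its 3 probes (ILMN_2671572) read 723 uninjured, 708 and 809 at 3 h, and 681 at 12 h in overexpression cultures. In knockdown cultures it read 833 and 887 uninjured, 890 and 868 at 3 h, and 906 and 1034 at 12 h. In control cultures it read 641 and 753 uninjured, 560 and 653 at 3 h, and 735 and 682 at 12 h. The 6 knockdown arrays were above all 4 overexpression arrays and all 6 control arrays.

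On this probe Smad1 rose in knockdown against control by 0.40 (SE 0.0717, adjusted p = 7.31e-05) and fell in overexpression against knockdown by 0.30 (SE 0.0828, adjusted p = 0.00370). The second probe (ILMN_2953700), between 381 and 826, also passed, at 0.37 (SE 0.109, adjusted p = 0.00670) for knockdown against control and -0.38 (SE 0.126, adjusted p = 0.0127) for overexpression against knockdown. With values floored at 16 the adjusted p of the second probe's overexpression against knockdown difference was 0.0679. Overexpression and control differed by 0.10 (95% interval -0.08 to 0.27) on the brightest probe and by -0.01 (-0.28 to 0.25) on the second. The third probe (ILMN_1234354) was above 16 on 2 of 16 arrays and showed no call.

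Smad1 did not pass the test at 12 h. On the brightest probe the averaged 12 h difference was 0.04 (95% interval -0.14 to 0.21), and on the second it was -0.16 (-0.43 to 0.10). The largest difference of a single construct at 12 h was on the second probe in control, at -0.40 (SE 0.189, adjusted p = 0.761). The described 3 h differences lay between -0.18 and 0.09 on these probes.

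Smad5, on chromosome 13 (GRCm38.p6, 56703010 to 56742378), was highest in overexpression and lowest in knockdown, where Smad1 was highest. It shares most of its known functions with Smad1. The one kept probe (ILMN_3155789) read 54.9 uninjured, 57.3 and 68.3 at 3 h, and 87.7 at 12 h in overexpression cultures. In knockdown cultures it read 37.7 and 19.9 uninjured, 28.3 and 22.8 at 3 h, and 26.8 and 32.2 at 12 h. In control cultures it read 51.5 and 44.2 uninjured, 19.7 and 47.2 at 3 h, and 50.6 and 44.3 at 12 h. All 4 overexpression arrays were above all knockdown and control arrays, and every knockdown array was below every control array but 1, the first at 3 h.

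Smad5 rose in overexpression against knockdown by 0.51 (SE 0.0900, adjusted p = 5.17e-05) and against control by 0.30 (SE 0.0900, adjusted p = 0.00774). Floored folds over knockdown were 2.0 uninjured, 2.46 at 3 h and 2.99 at 12 h. It fell in knockdown against control by 0.21 (SE 0.0779, adjusted p = 0.0285), a call lost in 8 of 24 alternative settings, cyclic loess (adjusted p = 0.104), values floored at 16 (0.0567) and 6 left-out arrays among them. Those arrays were control uninjured 1 (0.0643), control 12 h 1 (0.0678), control 3 h 2 (0.130), knockdown 12 h 1 (0.0689), knockdown uninjured 2 (0.101) and knockdown 3 h 2 (0.0623). At 12 h the Smad5 difference from uninjured was 0.34 in overexpression (SE 0.191, adjusted p = 0.715), 0.02 in knockdown and -0.01 in control.

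The inhibitory Smads were not measured above background. The Smad6 probe (ILMN_3008748) ranged from 2.26 to 17.6 and was above 16 on 1 of 16 arrays, a knockdown array at 12 h. Smad7 (ILMN_2759660), between -12.6 and 0.638, and the second Smad5 probe (ILMN_3076864), between -11.4 and 13.8, were above 16 on none. Of the 12 member probes, 9 (from 6 genes) passed the filter of 16 on at least 2 arrays and were tested.

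**Figure D3:**
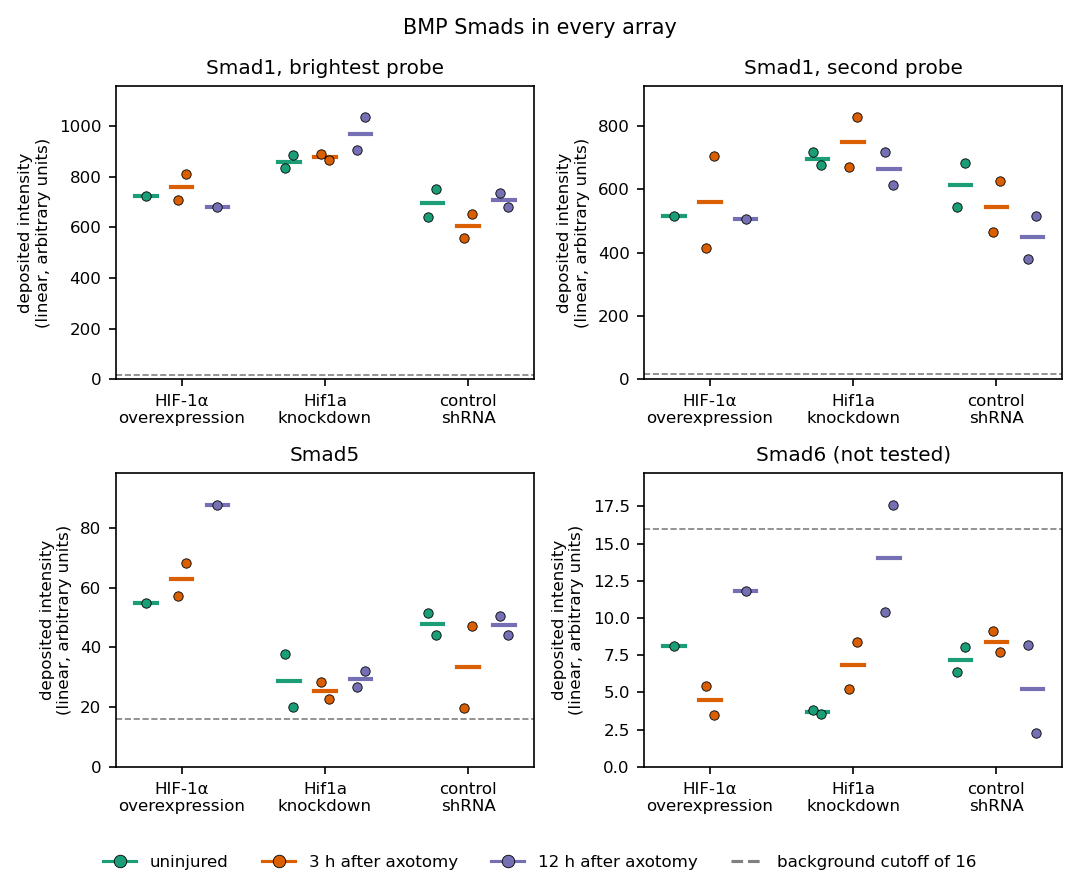
Deposited intensity (linear, arbitrary units) of 2 Smad1 probes, the kept Smad5 probe and the Smad6 probe on each array, by construct and time. Points are arrays, bars are group means and the dashed line is the cutoff of 16. For Smad5 the 4 overexpression arrays lie highest, and for the brightest Smad1 probe the 6 knockdown arrays do.

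Over the 9 tested member probes, 7 were called in knockdown against control, 6 higher and 1 lower, and over all 15086 probes 56.8% were called, 27.9% higher and 28.9% lower. In overexpression against control 4 of 9 were called, 3 higher and 1 lower, against 53.3% of all probes (24.3% higher, 29.0% lower). In overexpression against knockdown 6 of 9 were called, 1 higher and 5 lower, against 60.1% of all probes (28.7% higher, 31.4% lower). Construct differences of this kind were thus common on the array. Groups without overlap were seen for 2 of 9 probes in knockdown against control (36.2% of all probes), 2 of 9 in overexpression against control (39.9%) and 3 of 9 in overexpression against knockdown (45.4%). Within single constructs at 12 h limma called 0 of 9 member probes in each, with 3, 2 and 2 at an unadjusted p under 0.05 in overexpression, knockdown and control, where 7.56%, 10.5% and 6.48% of all probes were. The shares of all probes called at an adjusted p under 0.05 were 0.00%, 0.259% and 0.0199% in the same order. Neither interaction at 12 h gave a member call (0.00% of all probes in each), with 1 member at an unadjusted p under 0.05 for overexpression and 0 for knockdown, against 5.60% and 5.46% of all probes.

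**Figure D4:**
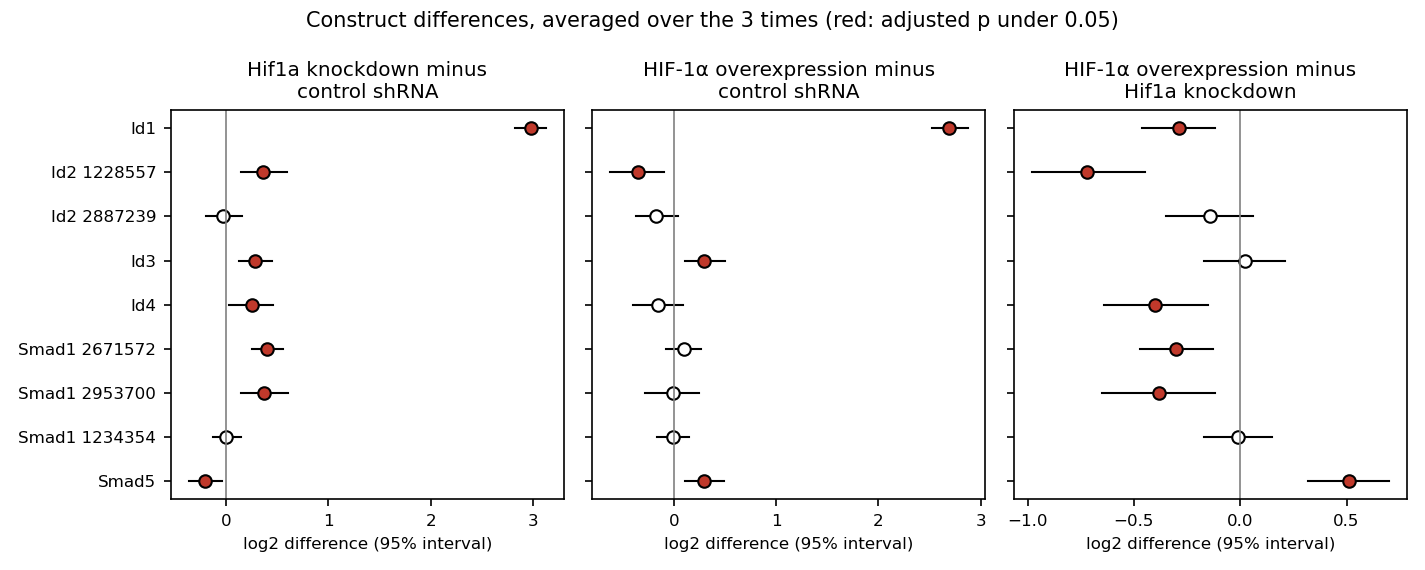
Log2 difference between constructs averaged over the 3 times for the 9 tested member probes, with 95% intervals; red points passed at an adjusted p under 0.05 and digits after a gene are its probe number. Id1 stands at 2.98 and 2.69 in the 2 comparisons with control, and all other member points lie between -0.72 and 0.51.

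Ligands and other secreted factors of the pathway, read on the brightest kept probe of each gene, differed between the constructs, and no ligand passed the test after axotomy. Of 6 measured genes of the ligand list, 2 rose and 1 fell in knockdown against control, and 3 were called higher in overexpression. Each set was compared with the same control arrays. Gdf15 and Bmp1, the 2 that rose in knockdown, are not BMP receptor ligands, and Gdf15 was also among the 3 in overexpression. Over all 11151 genes 58.9% were called in knockdown (30.9% higher, 28.0% lower) and 54.6% in overexpression (25.5% higher, 29.1% lower). Gdf15, a distant family member known as a stress-induced hormone and not a BMP receptor ligand, read at most 36.3 in overexpression, 328 to 618 in knockdown and at most 18.2 in control. Its rise was 2.79 in knockdown (SE 0.0728, adjusted p = 2.72e-17), against 0.35 in overexpression (SE 0.0841, adjusted p = 0.00139). Within knockdown Gdf15 read 328 and 338 uninjured, 395 and 465 at 3 h, and 508 and 618 at 12 h. Averaged over the constructs its 12 h difference from uninjured was 0.38 (SE 0.0841, adjusted p = 0.0533). Bmp1, a protease that cleaves chordin and procollagen, rose in knockdown by 1.25 (SE 0.0688, adjusted p = 2.93e-12). The true ligand Bmp4 fell in knockdown by 0.22 (SE 0.0713, adjusted p = 0.0118), with 3.89 to 18.2 in knockdown against 19.2 to 27.5 in control. In overexpression Bmp3, an atypical ligand that opposes others, differed from control by 0.52 and Bmp7 by 0.34. Both were above 16 only on overexpression arrays, at most 29.9 for Bmp3 and 21.3 for Bmp7, so they passed the filter only through the group where they were high and had to differ. With a filter of 16 on at least 8 arrays the ligand-list genes called in overexpression were 1 in place of 3. Bmp7 was lost with values floored at 16 (adjusted p = 0.0908). The median of the ligand list was 0.05 in knockdown and 0.20 in overexpression, against -0.00 and -0.02 over all genes.

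Antagonists, which bind BMPs outside the cell, moved in both directions. Of 10 measured, 7 rose and 1 fell in knockdown, and 3 rose and 3 fell in overexpression, with medians of 0.32 and 0.04. The shares called over all genes were 58.9% in knockdown and 54.6% in overexpression. Sostdc1 and Nog were above 16 only on knockdown arrays, and Fst and Chrd only on knockdown and overexpression arrays. These genes passed the filter only through groups where they were high, so the counts and medians cannot show a direction for the list. Fstl1, a secreted follistatin-like protein, was 895 to 1454 in overexpression, 500 to 799 in knockdown and 2766 to 3566 in control, with differences of -1.39 in overexpression (SE 0.116, adjusted p = 2.85e-09) and -2.16 in knockdown (SE 0.101, adjusted p = 2.29e-13). Nbl1, a DAN-family antagonist, fell in overexpression by 1.86 (SE 0.0960, adjusted p = 1.55e-12), with 41.3 to 62.8 against 292 to 433 in control. Chrd, which encodes chordin, rose by 0.84 in knockdown and by 0.70 in overexpression and was below 16 on all control arrays. Twsg1, a chordin partner, fell by 0.45 in overexpression and rose by 0.73 in knockdown.

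Receptors and co-receptors were also split. Of 10 measured, 5 rose and 3 fell in knockdown, and 1 rose and 2 fell in overexpression, with medians of 0.07 and -0.07. Among all genes 58.9% were called in knockdown and 54.6% in overexpression. Eng and Rgma were above 16 only on knockdown arrays, and Bmpr1b and Hjv only on control arrays. They passed the filter only through the group where they were high, so the counts and medians cannot show a direction for the list. The activin and BMP type II receptor Acvr2b was higher than control by 1.11 in overexpression (SE 0.0829, adjusted p = 4.90e-10) and 0.82 in knockdown (SE 0.0718, adjusted p = 3.90e-09). Its paralogue Acvr2a fell by 0.61 in knockdown and by 0.81 in overexpression. Rgmb, a BMP co-receptor of sensory neurons, stood at -0.29 in overexpression (SE 0.107, adjusted p = 0.0292) and -0.53 in knockdown (SE 0.0927, adjusted p = 5.74e-05). The overexpression call of Rgmb was lost with values floored at 16, an offset of 16, cyclic loess and without any 1 of 4 arrays (adjusted p up to 0.0998): control uninjured 1, control 3 h 1, control 12 h 1 or overexpression 3 h 2. The overexpression count of 3 receptors was 6 without control uninjured 2, and 5 without knockdown 3 h 1 or without knockdown 3 h 2.

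Other Smads and their modulators held 16 measured genes, of which 7 rose and 4 fell in knockdown and 4 rose and 4 fell in overexpression, with medians of 0.08 and -0.01. Calls over all genes made up 58.9% in knockdown and 54.6% in overexpression. Zfp423, a zinc finger partner of BMP Smads, rose in knockdown by 1.30 (SE 0.0728, adjusted p = 4.02e-12), with 90.5 to 134 in knockdown and no control array above 14.6. It thus passed the filter without any control array, and the counts and medians cannot show a direction for the list. Smad3, which carries TGF-beta and activin signals, rose in knockdown by 0.86, and Zeb1, a Smad-binding repressor, by 0.56. In overexpression Skil, a Smad corepressor, rose by 0.64, whereas the Smad phosphatase gene Ctdsp2 fell by 0.43 and Smad2 fell by 0.39. Smad9 was measured but not kept.

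Other genes known as BMP targets included 5 measured, of which 2 rose in knockdown and 3 rose in overexpression and none fell, with medians of 0.09 and 0.76. Over all genes 58.9% were called in knockdown (28.0% lower) and 54.6% in overexpression (29.1% lower). Counts over 5 genes cannot show a direction for the list. Junb, an AP-1 subunit that many stimuli induce, read 370 to 448 in overexpression, 27.3 to 44.8 in knockdown and at most 17.0 in control. The rise was 2.73 in overexpression (SE 0.0849, adjusted p = 4.40e-16), against 0.43 in knockdown (SE 0.0735, adjusted p = 3.57e-05). Hey1, a Notch and BMP target, rose in overexpression by 1.60 (SE 0.0885, adjusted p = 4.16e-12) and Dlx3 by 0.76. Hes1, best known as a Notch target, rose in knockdown by 0.42.

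The list of E proteins, the partners that Id proteins hold, and of other bHLH factors had 5 measured genes. In knockdown 2 rose and 1 fell, and in overexpression 1 rose and 1 fell, with medians of -0.15 and -0.10. The shares over all genes were 58.9% called in knockdown and 54.6% in overexpression. Neurog2 was above 16 only on control arrays and passed the filter only through that group. Tcf4, an E protein, read 470 to 589 in overexpression, 2296 to 3273 in knockdown and 758 to 1020 in control, and was thus highest in knockdown and lowest in overexpression without overlap. It fell in overexpression by 0.72 (SE 0.0802, adjusted p = 1.90e-07) and rose in knockdown by 1.60 (SE 0.0695, adjusted p = 7.96e-14). Hes6, a neuronal bHLH factor that is not an E protein, ran the other way. It read 2708 to 3032 in overexpression, 768 to 1080 in knockdown and 1044 to 1359 in control. It rose by 1.30 in overexpression and fell by 0.40 in knockdown. Tcf12, another E protein, rose in knockdown by 0.27.

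The related TGF-beta and activin list held 13 measured genes, 5 higher and 2 lower in knockdown and 4 higher and 3 lower in overexpression, with medians of 0.05 and 0.12. Of all genes 58.9% were called in knockdown and 54.6% in overexpression. Inhba, the activin A subunit, rose by 0.89 in knockdown and 0.98 in overexpression. Tgfb2 fell in overexpression by 1.58, with 36.4 to 114 against 273 to 354 in control, and Tgfbr1, a type I receptor, fell by 0.86. In knockdown the type II receptor Tgfbr2 rose by 0.62 and Tgfb1i1, a TGF-beta-induced adaptor, fell by 0.58.

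No gene of these 7 lists was called by limma at 3 h or at 12 h averaged over the constructs, where 0.0359% and 0.448% of all genes were. At an unadjusted p under 0.05 there were 1 ligand-list gene, 1 receptor, 1 antagonist, 2 modulators and 1 TGF-beta gene at 3 h. No other BMP target or bHLH gene was under 0.05 at 3 h, where 7.33% of all genes were. At 12 h there were 3 ligand-list genes, 1 antagonist, 1 modulator and 2 TGF-beta genes, against 11.9% of all genes. No receptor and no other BMP target or bHLH gene was under 0.05 at 12 h.

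**Figure D5:**
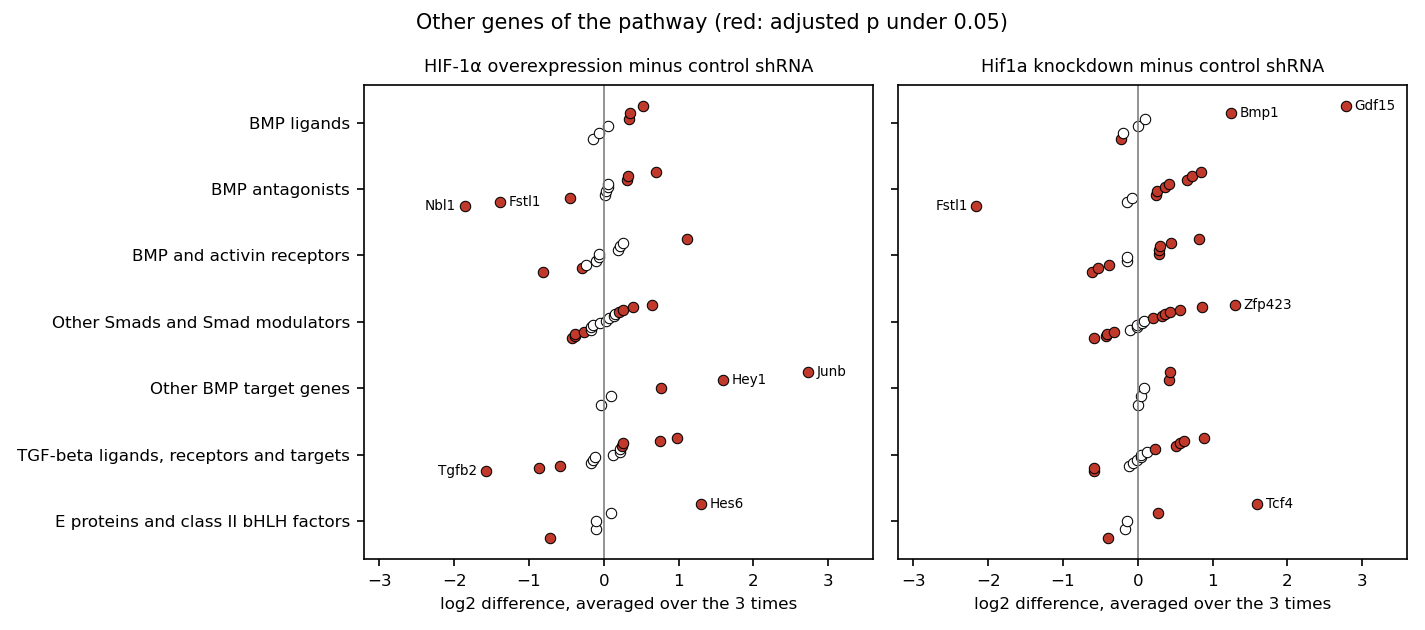
Log2 difference from control, averaged over the 3 times, for each measured gene of the 7 lists in overexpression (left) and knockdown (right); red points passed at an adjusted p under 0.05 and genes beyond 1.2 are named. Calls lie on both sides of the zero line in most lists, and Gdf15 in knockdown and Junb in overexpression stand furthest to the right.

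The genes whose course after axotomy was most like that of Id1 were found by the root mean square difference over 6 log2 changes, 3 h and 12 h against uninjured in each construct, among 10446 named genes. They were Hspb3 (0.303), Zfp607a (0.316), Lrba (0.322), Cotl1 (0.332) and Igf2bp3 (0.341). Hspb3, a small heat shock protein gene, read 70.0 uninjured, 8.40 and 14.5 at 3 h and 22.6 at 12 h in overexpression, and no control array exceeded 2.46. Cotl1, a coactosin-like actin regulator, read 235 uninjured, 117 and 145 at 3 h and 160 at 12 h in overexpression, while its knockdown arrays stayed between 949 and 1104. On the same measure Id3 stood at 0.374, at rank 12 with Id1 itself at rank 1, and the brighter Id2 probe at 0.439, whereas Id4 was at 0.709. The changes share the uninjured arrays, and the likeness is a description only.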

How the data were processed

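RNA of 16 samples was hybridised to Illumina Mouse Ref-8 BeadChips. The deposited values are intensities on a linear scale (-21.7 to 40784.5, 27.2% below 0), made by the authors with GenomeStudio, per the submitters' processing notes, for which no version was stated there. The upper quartile was 166.495 on every array, the median 13.3 to 13.5, and no 2 arrays were identical. A further 32 columns of unnormalized values match no sample label and were not used. Gene symbols came from the deposited annotation, updated through RefSeq for 3872 probes, current for 20733 and kept as given for 1092.

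The intensities were corrected with normexp (offset 50), quantile normalized and taken to log2 in R 4.3.3 with limma 3.58.1. A probe was kept if its intensity was above 16 on at least 2 arrays (15086 of 25697 probes; the spread of values below 0 was 6.42). One limma fit held a mean for each of 9 groups (7 residual and 12.6 prior degrees of freedom), with eBayes and Benjamini-Hochberg adjustment over all kept probes. All adjusted p-values, at a threshold of 0.05, and intervals are from this fit. Groups of 1 array took their spread from the others. The number of arrays limits the precision. A floored fold sets intensities below 16 to 16, and where a whole group lay below it the fold is a bound. Pathway and marker genes were read on the kept probe with the highest mean. Named pathway genes are up to 3 per list and comparison with the smallest p among those called; the value of Twsg1 in overexpression was added after it was seen. The members and lists were chosen with earlier results of these data known. Tested on simulated data for the averaged 12 h comparison over 15086 probes, the fit recovered 81 of 100 probes changed by 0.5 (log2) and 100 of 100 changed by 1, with 10 false calls. Alternatives were a floor of 16, an offset of 16, cyclic loess, other filters, 1 probe per gene, an intensity trend, a replicate block and leaving out each array.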

Additional observations from a re-analysis of the deposited data

Results flagged for a closer look

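Id4 (ILMN_2678714) at 3 h and Smad1 (ILMN_2671572) at 12 h drew attention because every injured array of one HIF-1α construct lay on one side of its uninjured values and every injured array of the other construct on the opposite side. For Id4 the 3 h change in overexpression minus that in knockdown was -0.77 on the log2 scale. For Smad1 the 12 h change in overexpression minus that in knockdown was -0.24. Overexpression had 1 uninjured array in both cases and 1 array at 12 h, and neither difference was tested.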

How the results depend on the processing

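Comparisons between constructs changed little over all probes, and those after axotomy depended on the scale. With intensities floored at 16, the averaged 12 h comparison called 31 probes in place of 62, with 0 members in place of 1. The same floor gave 117 in place of 0 in overexpression, 19 in place of 39 in knockdown and 5 in place of 3 in control. It also gave 19 in place of 0 for the overexpression interaction, 19 in place of 4 at 3 h, and 4 in place of 7 members in knockdown against control. With an offset of 16 the 12 h counts were 7 averaged (0 members), 2 in knockdown and 0 in control, and 2 at 3 h. The share of called probes that were higher in the averaged 12 h comparison was 71.4% with that offset, against 59.7%. One probe per gene gave 2 member calls at 12 h. In knockdown at 12 h no filter gave 63 and an intensity trend 74, and the trend gave 9 in control. Deviations of same-numbered arrays correlated at -0.16 to 0.30 over 21 pairs of groups, 6 of them over 0.1. Within knockdown the correlations were 0.03 to 0.30 and within control 0.10 to 0.17, all positive. The main fit did not pair the arrays by number, and whether same-numbered arrays belong together was not tested. A replicate block gave 66 in place of 39 in knockdown at 12 h. It also gave 5 in place of 3 receptor genes called in overexpression against control. The count of ligand-list genes there was 1 in place of 3 with a filter of 16 on at least 8 arrays. Leaving out single arrays gave 13 to 65 probes in the averaged 12 h comparison (0 to 1 members), 2 to 52 in knockdown, 0 to 11 in control, 0 to 1 for each interaction and 3 to 9 at 3 h. Members called stayed between 5 and 7 in knockdown against control, 3 and 4 in overexpression against control, and at 6 in overexpression against knockdown. Described 3 h values of dim probes moved with the floor, to -1.38 in overexpression and -0.50 in control for Id1, and to -1.45 in overexpression, -1.40 in knockdown and 0.44 in control for Id3. No direction of a called value reversed under the alternatives run; the cause of the other changes was not tested. Signal near background limits Id3, Smad5, Smad6, Smad7 and Id1 in control.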
